A study of Homo sapiens with 33 samples.

Results

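LINC00534 and FLJ46284 are 2 long non-coding RNA (lncRNA) genes of human chromosome 8, described here through 32 of 900 listed RNA fragments. The fragments are stretches of RNA that the authors called in K562 cells from RIP-seq, the sequencing of RNA pulled down with an antibody, here against EZH2. EZH2 is the enzymatic subunit of Polycomb Repressive Complex 2 (PRC2). Members were fragments with 50% or more of their bases in the GENCODE 44 span of either gene, and each of them was wholly inside. LINC00534 held 17 fragments and FLJ46284 held 15. The listed fragments had been chosen by their EZH2 over IgG read coverage, and the genes were chosen with earlier results of these data known, so their number and position are a description and were not tested. The RIP-seq values themselves were not analysed here.

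K562 is a human erythroleukemia line, and all libraries used here came from its wild type cells. The cells gave a cytoplasmic and a nuclear fraction of RNA. Beads that capture poly(A) tails then split the nuclear fraction into nuclear polyA+ RNA, which they bound, and nuclear polyA- RNA, which they did not. Each of the 4 fractions was sequenced as 1 library, and the input RNA of the RIP-seq as another, so no replicate error can be given. Intervals on ratios of reads below are exact 95% Clopper-Pearson intervals, and those on a ratio divided by another ratio are 95% intervals from the counts on the log scale. Both cover counting error only.

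A lncRNA is transcribed, spliced and often polyadenylated like an mRNA but has no known protein product. PRC2 methylates lysine 27 of histone H3, a mark of silent chromatin, and binds many RNAs, among them unspliced transcripts still attached to chromatin. Reads in the introns of a gene come from RNA that has not been spliced or from excised introns, and such RNA is mostly found in the nucleus and mostly lacks a poly(A) tail.

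LINC00534 (ENSG00000253394.7) lies on the plus strand of GRCh38 at chr8:90221341-90687863, a span of 466523 bp with 27 annotated isoforms. Its 17 fragments covered 81610 bp, 17.5% of the span, with lengths of 424 to 18846 bp around a median of 2914 bp. They began 0.442 kb from the gene's start and ended at 275.4 kb, with no listed fragment in the remainder of the gene. The gene span of GENCODE 26, which the authors used, is 347.8 kb long and holds the same fragments. A gap of 77.5 kb separated the 13 fragments nearest the start from the other 4.

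FLJ46284 (ENSG00000248858.7) lies on the minus strand at chr8:92699742-92879502, a span of 179761 bp with 4 isoforms. Its 15 fragments covered 41849 bp, 23.3% of the span, with lengths of 650 to 8946 bp around a median of 2088 bp. They lay between 15.4 and 141.0 kb from the start, with a largest gap of 15.0 kb. Both genes were therefore marked by many separate fragments rather than by a single block.

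Nearly all of these fragments were intronic in their own gene. In LINC00534, 1 of 17 fragments touched an annotated exon of the gene, the one nearest the start, with 825 of its 981 bp in an exon. In FLJ46284, 0 of 15 fragments touched an exon of the gene. Exons made up 3.19% of the LINC00534 span and 1.01% of its fragment bases, and 4.49% of the FLJ46284 span and 0% of its fragment bases. Over all 900 listed fragments, 747 (83.0%) had no base in any annotated exon. This share counts exons of every gene, so it is a stricter measure than the member counts above. Counted from the gene's start, LINC00534 fragments 8 and 11 held 113 and 74 bp in exons of other genes. FLJ46284 fragment 5 held 56 bp. By the measure used for the list, LINC00534 fragments 1, 8 and 11 and FLJ46284 fragment 5 thus held exon bases. A lack of exon bases was common in the list and not particular to these genes.

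Antisense genes lie over most of the fragments. All 17 LINC00534 fragments also lay in ENSG00000254180, a lncRNA on the minus strand, and 11 FLJ46284 fragments also lay in ENSG00000253577, a lncRNA on the plus strand. The strand setting used for counting is not given in the sources used here, so reads of each gene and its antisense partner cannot be told apart. In the input RNA the antisense partner of LINC00534 had 0.407 FPKM (authors' bounds 0 to 0.877). That of FLJ46284 had 0.802 FPKM (0 to 1.61). Both were below the value of the gene on the other strand, given further on.

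The listed fragments together held 7929 cytoplasmic, 105661 nuclear, 57985 polyA+ and 106051 polyA- reads. These sums are not library totals, which the count tables do not hold, so counts were compared as deposited. Between 2.44% (nuclear) and 23.6% (cytoplasmic) of the listed fragments had no read in a library. In the input RNA 8 of 8 erythroid marker genes had at least 1 FPKM (5.16 to 218.0), against 1 of 8 markers of other cells, LYZ at 5.76.

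Across its 17 fragments LINC00534 held 17 reads of cytoplasmic, 906 of nuclear, 423 of polyA+ and 925 of polyA- RNA. Across its 15 fragments FLJ46284 held 0 reads of cytoplasmic, 50 of nuclear, 8 of polyA+ and 37 of polyA- RNA. Nuclear reads thus far outnumbered cytoplasmic reads in both genes, and FLJ46284 was close to the counting limit in all 4 libraries. Of the LINC00534 fragments, 16 had at least 10 reads over the 4 libraries and 1 had at most 3 reads in each. Of the FLJ46284 fragments, 4 had at least 10 reads and 10 had at most 3 in each library, compared with 49 of the 900 listed fragments.

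Per kb of fragment, LINC00534 had 11.1 nuclear reads and FLJ46284 had 1.20. The LINC00534 density was 9.29-fold higher (6.99 to 12.6) in nuclear RNA. It was 12.8-fold higher (9.23 to 18.3) in polyA- RNA and 27.1-fold higher (13.6 to 63.2) in polyA+ RNA. In cytoplasmic RNA, with 17 reads against 0, it was 2.91-fold higher when the 0 is set to 3 reads over the gene. The lower 95% limit from the observed counts was 2.12. The fragment with the fewest nuclear reads per kb in LINC00534 had 1.43 and the one with the most in FLJ46284 had 3.08, so the ranges of the genes overlapped, with medians of 11.6 and 1.34. Because these are bulk RNA, fewer cells transcribing a gene and less RNA per cell cannot be told apart.

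Both genes were below the typical listed fragment. The median nuclear density over all 900 fragments was 27.7 reads per kb. CCDC26, a lncRNA gene of the same chromosome with 22 listed fragments, had 48.0 nuclear reads per kb over its fragments. Its median fragment had 41.4. The 257 other fragments in non-coding genes had a median of 34.0 and 60.2 pooled, with up to 2463 in 1 fragment.

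**Figure D1:**
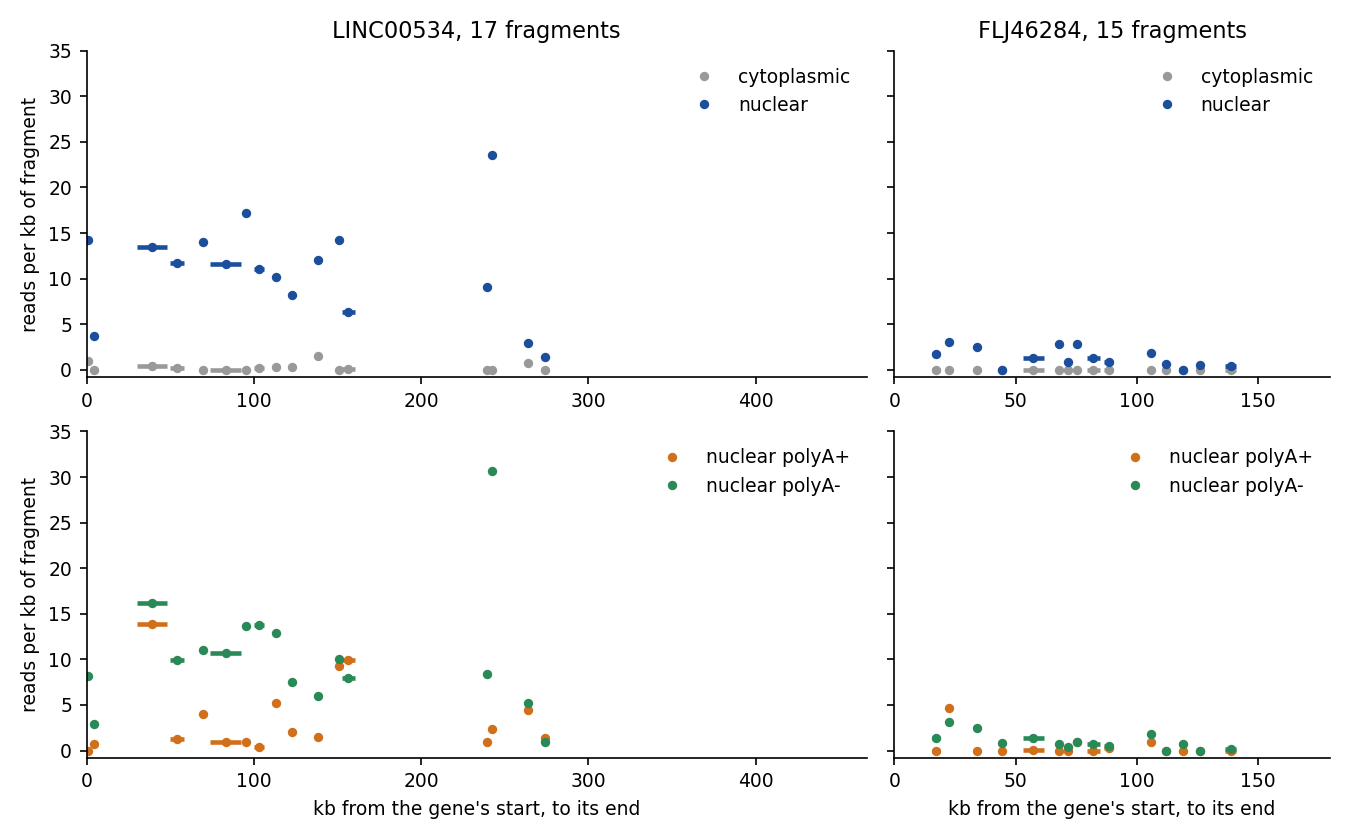
Reads per kb of each fragment against its distance in kb from the gene's start, for LINC00534 (left, 17 fragments) and FLJ46284 (right, 15 fragments); the upper panels show cytoplasmic and nuclear RNA and the lower panels nuclear polyA+ and polyA- RNA, with 1 library each. Points stand at the middle of a fragment and bars span its length; LINC00534 reached 23.6 nuclear reads per kb, FLJ46284 at most 3.08, and the x axes run to the end of each gene.

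The first comparison asked whether the fragments were nuclear. In LINC00534, 17 of 17 fragments had more nuclear than cytoplasmic reads, and in FLJ46284 13 of 15 did, with the other 2 at 0 reads in both. Over all listed fragments 96.2% had more nuclear reads, so these counts are near the background. Pooled over fragments, the nuclear to cytoplasmic ratio was 53.3 (33.1 to 91.9) for LINC00534. For FLJ46284, with 50 reads against 0, it was 16.7 when the 0 is set to 3 reads over the gene. The lower 95% limit from the observed counts was 13.1. Scaled to equal sums on the listed fragments, the LINC00534 ratio was 4.00. The FLJ46284 value, with its 0 set to 3 reads, was then 1.25 with a lower limit of 0.980, so its interval included 1.

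These ratios were not equal across the list. The pooled ratio was 13.2 (12.9 to 13.5) over the 868 other listed fragments, 15.2 (14.6 to 15.7) over other fragments in non-coding genes and 76.1 (59.5 to 99.0) over CCDC26. Divided by the ratio of all other fragments, which cancels the library totals, the LINC00534 ratio was 4.03-fold higher (2.49 to 6.51). Divided by that of CCDC26 it was 0.700 (0.408 to 1.20), an interval that includes 1. At the ratio of the other fragments LINC00534 would have had 68.5 cytoplasmic reads against the 17 counted. FLJ46284 would have had 3.78 against 0, so a ratio above that of the other fragments was not detectable at this depth. The median of the fragment ratios, with cytoplasmic counts under 3 set to 3, was 9.33 in LINC00534. It was 12.4 over all other fragments. In LINC00534 only fragment 3 had at least 3 cytoplasmic reads, so 9.33 is the median nuclear count of 28 over the floor. The median nuclear count of the other fragments was 55. The lower median ratio therefore goes with lower counts and gives no direction for the fraction ratio.

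Cytoplasmic reads were few in each LINC00534 fragment. The fragment with the most cytoplasmic reads, fragment 3 counted from the gene's start, had 7 of the 17, and 8 fragments had none. Fragment 6, the longest at 18846 bp, had 0 cytoplasmic and 218 nuclear reads. Fragment 7 had 0 and 53, and fragment 12 had 0 and 34. Fragments 4, 8 and 13 had 2, 1 and 1 cytoplasmic reads beside 93, 66 and 47 nuclear reads. Ratios were lower in some short fragments, with 2 cytoplasmic and 16 nuclear reads in fragment 11, 1 and 14 in fragment 1, and 1 and 4 in fragment 16. With cytoplasmic counts under 3 set to 3, 14 of 17 LINC00534 fragments (82.4%) and 4 of 15 FLJ46284 fragments (26.7%) were at least 2-fold higher in nuclear RNA, where 88.4% of all listed fragments were. The low share of FLJ46284 goes with its counts, since a fragment needs at least 6 nuclear reads to reach that fold against 3.

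The second comparison asked whether the nuclear RNA was polyadenylated. The pooled polyA- to polyA+ ratio was 2.19 (1.95 to 2.46) for LINC00534 and 4.63 (2.12 to 11.5) for FLJ46284. It was 1.83 (1.81 to 1.85) over all other listed fragments, 1.56 (1.53 to 1.58) over other non-coding ones and 4.75 (4.44 to 5.08) over CCDC26. More polyA- than polyA+ reads were counted in 15 of 17 LINC00534 fragments and 11 of 15 FLJ46284 fragments, against 83.4% of all listed fragments. At least 2-fold more were counted in 11 of 17 (64.7%) and 1 of 15 (6.67%), against 64.3%. For this call polyA+ counts under 3 were set to 3, so a fragment needs at least 6 polyA- reads. In FLJ46284 only fragment 5 had as many, so its low share goes with its counts.

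Relative to all other fragments, the ratio was 1.20-fold higher (1.07 to 1.34) for LINC00534 and 2.53-fold higher (1.18 to 5.44) for FLJ46284. Without the 10 listed fragments with the most reads, the LINC00534 value turned to 0.943 (0.840 to 1.06) and the FLJ46284 value was 1.99 (0.929 to 4.28), and both intervals include 1. Relative to CCDC26 it was 0.461 (0.403 to 0.526) for LINC00534 and 0.974 (0.453 to 2.10) for FLJ46284. LINC00534 relative to FLJ46284 was 0.473 (0.218 to 1.02), an interval that includes 1. The direction of the LINC00534 ratio itself depends on the scale, because it was 0.615 when the median ratio of all listed fragments was set to 1.

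The pooled value of LINC00534 hid a wide spread between its fragments. Fragment 3 (chr8:90251181-90269176, 17996 bp) held 7 reads of cytoplasmic, 242 of nuclear, 250 of polyA+ and 292 of polyA- RNA. Fragment 6 (chr8:90294981-90313826, 18846 bp), which begins 73.6 kb from the gene's start, had 0, 218, 18 and 202. The pair of longest fragments of the gene thus had nearly the same nuclear density, 13.5 and 11.6 reads per kb, and unlike polyA+ counts. Their polyA- to polyA+ ratios were 1.17 (0.983 to 1.39) and 11.2 (6.92 to 19.3), and the first was 0.104 (0.0625 to 0.174) of the second. This quotient needs no library total, and the pair was chosen after its values were seen.

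Fragment 13 (chr8:90374190-90381653, 7464 bp) held 1 cytoplasmic, 47 nuclear, 74 polyA+ and 59 polyA- reads, and its polyA- to polyA+ ratio was 0.797 (0.557 to 1.14). Fragment 12 (chr8:90370792-90373170, 2379 bp), its neighbour, had 0, 34, 22 and 24 reads, a ratio of 1.09 (0.586 to 2.04). Between these and fragment 3 lay fragments with few polyA+ and many polyA- reads. Fragment 4 (chr8:90271426-90279348) had 10 and 79, respectively, and thus a ratio of 7.90 (4.08 to 17.1). Fragment 7 had 3 and 42, a ratio of 14.0 (4.47 to 70.6). Fragment 8 had 2 and 82, with an interval on the ratio from 11.0 to 344. Fragment 9, also between fragments 3 and 12, had 18 and 44, a ratio of 2.44 (1.38 to 4.50). PolyA+ counts were therefore higher in fragments 3, 12 and 13 than in the fragments between them.

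Fragments 3, 13 and 12, the 3 with the most polyA+ reads, held 346 of the 423 polyA+ reads (81.8%) of LINC00534 and 375 of its 925 polyA- reads. Their pooled polyA- to polyA+ ratio was 1.08 (0.934 to 1.26), and that of the other 14 fragments was 7.14 (5.62 to 9.19). Nuclear density differed little between these sets, at 11.6 and 10.8 reads per kb. The polyA+ density was 12.4 against 1.43 reads per kb. The sets were formed on the polyA+ counts, so this is a description of where those reads lie.

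The remaining LINC00534 fragments were short or low. Fragment 1, the exonic one at the gene's start, held 1 cytoplasmic, 14 nuclear, 0 polyA+ and 8 polyA- reads. Fragment 9 had 1, 35, 18 and 44 reads, with a polyA- to polyA+ ratio of 2.44 (1.38 to 4.50). Fragments 2, 5, 10 and 11 had 5, 14, 24 and 16 nuclear reads, with 1, 4, 6 and 2 polyA+ and 4, 11, 22 and 8 polyA- reads. Beyond the large gap, fragments 14 to 17 had 28, 10, 4 and 3 nuclear reads, with 3, 1, 6 and 3 polyA+ and 26, 13, 7 and 2 polyA- reads.

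In LINC00534 the 13 fragments before the gap had 11.5 nuclear reads per kb pooled and the 4 after it had 6.46. The fragment with the highest density, fragment 15 with 23.6 reads per kb from 10 reads over 424 bp, also lay after the gap. Spearman's correlation between distance from the start and nuclear reads per kb was -0.32 over 17 fragments. For FLJ46284 it was -0.55 over 15 fragments. With polyA- reads per kb it was -0.24 in LINC00534 and -0.72 in FLJ46284. With polyA+ reads per kb it was 0.35 in LINC00534 and -0.16 in FLJ46284. The points of each gene share the same libraries and, in FLJ46284, rest on 50 nuclear and 37 polyA- reads.

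In FLJ46284 the reads were thinly spread. Fragment 5 (chr8:92817619-92826564, 8946 bp), the longest, held 0 cytoplasmic, 12 nuclear, 1 polyA+ and 12 polyA- reads, with the highest nuclear count of the gene. Fragment 9 had 0, 7, 0 and 4, fragment 1, nearest the start, had 0, 6, 0 and 5, and fragment 8 had 0, 6, 2 and 2. The other 11 fragments had 0 to 4 nuclear reads, 0 to 3 polyA+ and 0 to 2 polyA- reads. The highest polyA+ count was 3, in fragment 2 (650 bp), beside 2 polyA- reads. Apart from fragments 1, 5, 8 and 9, no FLJ46284 fragment had more than 4 reads in any library.

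The base composition of the fragments was read on the strand of each gene. In LINC00534 G and A together made up 53.3% of fragment bases and 49.5% of the rest of the span, and in FLJ46284 52.0% and 48.6%. The excess was in A, with 34.3% against 30.8% in LINC00534 and 33.5% against 30.8% in FLJ46284. G differed by less, with 19.0% against 18.8% and 18.5% against 17.9%. The G and A share was above that of flanks of the same length in 12 of 17 and 13 of 15 fragments. Over the 698 listed fragments in genes of 1 strand it was above the flanks in 542 (77.7%), with medians of 52.8% and 50.2%, so the members were near the rest of the list.

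Within LINC00534 the polyA+ share tended to be higher in fragments with more A, with exceptions. Bases were read on the gene's strand, while the strand of the counted reads is not known. The polyA+ share of polyA+ and polyA- reads was 46.1% (95% Wilson interval 42.0 to 50.3) in fragment 3, with 38.6% A. It was 47.8% (34.1 to 61.9) in fragment 12, with 39.6% A, and 55.6% (47.2 to 63.8) in fragment 13, with 37.9% A. Fragment 16 had the most A of the gene at 41.2% and a share of 46.2% (23.2 to 70.9), from 13 reads. By contrast the share was 8.18% (5.24 to 12.6) in fragment 6, with 31.5% A, and 2.38% (0.655 to 8.27) in fragment 8, with 29.2% A. Exceptions were fragment 5, lowest in A at 28.4% with a share of 26.7%, and fragment 15, at 34.9% and 7.14%. Both rest on few reads.

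Over the 14 LINC00534 fragments with at least 10 polyA+ and polyA- reads, Spearman's correlation between A content and polyA+ share was 0.70. Between T content and polyA+ share it was -0.63. Over all 17 fragments the values were 0.55 and -0.48. Over all 656 such fragments of the list in genes of 1 strand the values were 0.11 for A and -0.45 for T. For runs of at least 10 A per kb, the correlation with polyA+ share was 0.26 over the 14 LINC00534 fragments and 0.25 over the 656. Fragment 6 held a run of 23 A and fragment 12 a run of 25, whereas the longest run in fragment 13 was 9. These measures were chosen after the counts were seen, the points share the libraries, and the part of base content in the polyA+ reads was not tested.

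In the FPKM table of the input RNA the genes did not stand in the order of their fragment counts. LINC00534 had 7.46 FPKM (authors' bounds 5.56 to 9.37), above 90.7% of the 58293 rows and above 57.2% of those with at least 1 FPKM. FLJ46284 had 9.91 FPKM (7.78 to 12.0), above 92.6% and 65.9%. The FLJ46284 value was 1.33 times that of LINC00534 and their bounds overlapped, so the genes were not told apart by FPKM. CCDC26 had 30.2 FPKM (27.2 to 33.2).

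FPKM is scaled to the length of annotated exons, of which the FLJ46284 fragments hold none, and the input and nuclear RNA are different libraries. Among 88 genes with at least 3 listed fragments and at least 1 FPKM, the median was 31.5 nuclear reads per kb of fragment at a median of 13.0 FPKM. LINC00534 ranked 81st by nuclear density, with 7 genes lower, and FLJ46284 ranked 85th, with 3 lower. Genes that share fragments were each counted, so the ranks and medians are not over separate regions. ENSG00000259929 and ENSG00000260242, both below FLJ46284 in density, hold the same 5 fragments. Nuclear density divided by FPKM was 1.49 for LINC00534, 0.121 for FLJ46284 and 2.07 at the median. By this measure 33 genes lay below LINC00534 and 1 below FLJ46284, FGF13, which encodes a member of the fibroblast growth factor family. Its 11 fragments held 0 cytoplasmic, 43 nuclear, 5 polyA+ and 40 polyA- reads, at 24.3 FPKM.

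**Figure D2:**
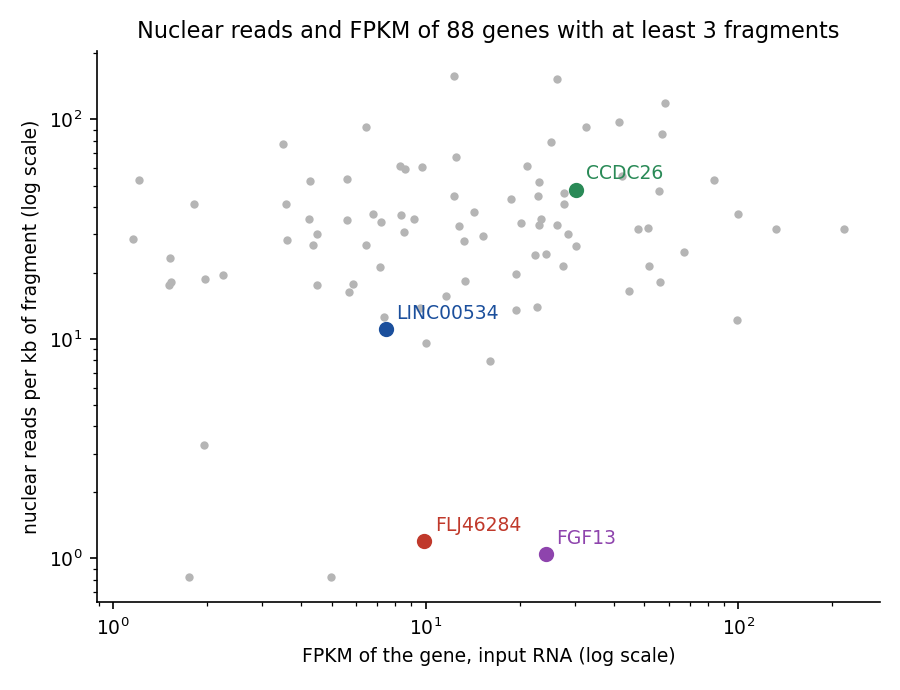
Nuclear reads per kb of listed fragment against FPKM of the gene in the input RNA, both on log scales, for the 88 genes with at least 3 listed fragments and at least 1 FPKM; each point is 1 gene and each axis rests on 1 library. FLJ46284 and FGF13 lie near 1 nuclear read per kb at 9.91 and 24.3 FPKM, while LINC00534 stands at 11.1 reads per kb and CCDC26 at 48.0. Genes that share fragments are drawn as separate points.

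The surroundings of the genes differed in the input RNA. Within 500 kb of LINC00534 the table held 25 other genes, 14 with at least 1 FPKM, 5 at 0 and a median of 1.80. All 11 protein-coding genes among them had at least 1 FPKM, from NECAB1, a calcium-binding protein gene, at 1.80 to DECR1, an enzyme of fatty acid oxidation, at 26.8. Others were OTUD6B, a deubiquitinase, at 18.8, NBN, a subunit of a DNA break repair complex, at 16.2, and TMEM64, which overlaps the end of LINC00534 on the other strand, at 5.02.

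Within 500 kb of FLJ46284 the table held 17 other genes, 2 with at least 1 FPKM, 8 at 0 and a median of 0.0883. These 2 were TRIQK, the only protein-coding gene among them, at 2.21 (0.873 to 3.54), and RP11-100L22.4, a lncRNA within FLJ46284 on the same strand, at 6.77 (3.24 to 10.3). FLJ46284 itself, at 9.91 FPKM (7.78 to 12.0), had a higher value than every listed gene within 500 kb of it. Its bounds overlapped those of RP11-100L22.4. LINC00534, at 7.46, was below 4 of its 11 protein-coding neighbours, namely DECR1, OTUD6B, NBN and C8orf88 (13.4).

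Genes with similar fraction ratios were sought among those with at least 3 listed fragments and 100 nuclear reads, by the distance over the log2 nuclear to cytoplasmic and log2 polyA- to polyA+ ratios. Of 93 candidates, the nearest to LINC00534 were KCNQ1, a potassium channel gene, and its antisense lncRNA KCNQ1OT1, at a distance of 0.07. They share the same 3 fragments, with 1 cytoplasmic, 153 nuclear, 58 polyA+ and 129 polyA- reads, and their distance rests on setting that cytoplasmic read to 3. GRM7-AS3, an antisense lncRNA, followed at 0.26 with 4, 183, 101 and 200 reads. For FLJ46284 the nearest of 95 candidates were FAF1 at 0.27, ENSG00000285016 at 0.29 and CHST11 at 0.30. The FLJ46284 distances rest on its 8 polyA+ reads and on a cytoplasmic count of 0 set to 3.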

How the data were processed

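Fractionated RNA-seq of K562 cytoplasmic, nuclear, nuclear polyA+ and nuclear polyA- RNA (1 library each) and the RNA-seq library of RIP-seq input RNA were used, 5 of the 33 samples listed. The authors depleted rRNA, prepared stranded libraries, trimmed reads with TrimGalore, aligned them by STAR (GRCh38, GENCODE 26), and discarded duplicates and alignments with mapping quality under 20. The authors deposited raw featureCounts read counts on 900 fragments for each fraction, without normalization. The authors reported more reproducible fragments than these 900, and the others were not analysed here. Counts, gaps and shares therefore refer to the listed ones. The deposited FPKM values, 1 per gene of the input library with lower and upper bounds, came from cuffdiff. Values of all other assays were not analysed here.

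Fragment coordinates were read as 1-based with both ends included and placed on GENCODE 44. Reads were pooled over the fragments of a gene. Ratios carry exact 95% Clopper-Pearson intervals, and ratios of ratios carry 95% intervals from the Poisson variance of the log ratio. Coverage was tested only on simulated independent Poisson counts, which share the assumption of the intervals. It does not speak to variation beyond counting error in these data. Denominators under 3 reads were set to 3. With 1 library per fraction no test was run. PCR reads are not independent molecules, so intervals and floors cover counting error only.

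The members and all lists were chosen with earlier results of these data known. Named genes were every member fragment, genes of the FPKM table within 500 kb that are protein-coding or have at least 1 FPKM (given by count and range, with examples), CCDC26 as another lncRNA gene of chromosome 8 with many listed fragments, and the 3 genes nearest by fraction ratios. Candidates for the last that share a fragment with the member were left out. FGF13, the groups of LINC00534 fragments by polyA+ reads and the runs of A were chosen after their values were seen. Sequence of these regions and repeat content were not used here. Alternatives comprised 2 scalings, filters on counts, exons and spans, and leaving out fragments with the most reads. Values were computed in Python 3.11.15 with scipy 1.17.1, pandas 2.3.3 and numpy 2.4.6 and drawn with matplotlib 3.10.9.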

Additional observations from a re-analysis of the deposited data

How the results depend on the processing

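The ratios depend on the scale of the libraries, which the counts do not fix. When libraries were scaled to equal sums on the listed fragments, the nuclear to cytoplasmic ratio was 4.00 for LINC00534 and 1.25 for FLJ46284 (lower limit 0.980), and the polyA- to polyA+ ratio of LINC00534 was 1.20. At least 2-fold more nuclear reads were then counted in 3 and 0 fragments of LINC00534 and FLJ46284, and at least 2-fold more polyA- reads in 7 LINC00534 fragments. When libraries were scaled to a median fragment ratio of 1, the nuclear to cytoplasmic ratios were 3.72 and 1.16 (lower limit 0.911), and the polyA- to polyA+ ratios 0.615, a reversed direction, and 1.30. The fragment counts were then 3 and 0 for nuclear and 5 and 0 for polyA- reads. Taking the median over fragments gave nuclear to cytoplasmic ratios of 9.33 and 0.667 and polyA- to polyA+ ratios of 2.67 and 0.667. The 0.667 of FLJ46284 is the floor of 3 reads under its median count of 2. Likewise the 9.33 of LINC00534 is that floor under its median nuclear count of 28.

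Without the fragment with the most reads, the polyA- to polyA+ ratio of LINC00534 was 3.66 and the nuclear to cytoplasmic ratio of FLJ46284 12.7 (lower limit 9.81). LINC00534 against FLJ46284 then turned from 0.473 to 1.03 (0.436 to 2.41). Without its 3 fragments with the most polyA+ reads, chosen after seeing the data, the LINC00534 ratio was 7.14. With only fragments of at least 10 nuclear and cytoplasmic reads together, FLJ46284 kept 1 fragment and a nuclear to cytoplasmic ratio of 4.0 (lower limit 2.78). With denominators of 0 set to 1 read, 11 FLJ46284 fragments had at least 2-fold more nuclear and 7 at least 2-fold more polyA- reads. Against other fragments, the polyA- to polyA+ ratio of LINC00534 was 0.943 without the 10 listed fragments with the most reads (1.99, 0.929 to 4.28, for FLJ46284), 1.41 against non-coding genes and 0.461 against CCDC26. The FLJ46284 value against CCDC26 was 0.974, and the LINC00534 nuclear to cytoplasmic value against CCDC26 was 0.700. The cause of these changes was not tested. The nuclear density of LINC00534 over FLJ46284 was 9.04 without the top fragment of each gene and 8.62 for the ratio of medians, both chosen after seeing the data. No paired analysis was possible because each fraction has 1 library and no result comes from a test.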
